A study of Mus musculus with 12 samples.

Results

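The 10 genes described here encode the enzymes of the urea cycle and other enzymes that mark hepatocytes around the portal vein. They are Cps1, Otc, Ass1, Asl, Arg1, Nags, Gls2, Hal, Sds and Cyp2f2, taken by symbol from a table of 56748 genes, and all 10 were among the 14003 genes with enough counts to be tested. They were measured by poly(A)-selected RNA sequencing of whole liver from 16-week-old mice kept in shared cages on normal chow. Wild type mice were of the 129S1/SvImJ line. Knockout mice were of the 129/Sv-Cyp2e1tm1Gonz/J line, which carries a targeted allele of Cyp2e1, a cytochrome P450 of hepatocytes around the central vein that oxidises ethanol and other small molecules. Wild type and knockout mice of each sex made up 4 groups with 3 biological replicates each, sequenced as 12 libraries. The wild type is a separate line and not littermates of the knockout as far as the labels say, so each difference between knockout and wild type is at once one between lines. The samples are bulk tissue, in which fewer cells of a type and less RNA per cell cannot be told apart.

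The urea cycle turns toxic ammonia, released when amino acids are broken down, into urea for excretion. It begins in the mitochondrion, where Nags makes N-acetylglutamate, the obligate activator of Cps1, Cps1 makes carbamoyl phosphate from ammonia and bicarbonate, and Otc joins it to ornithine to give citrulline. In the cytosol Ass1 joins citrulline to aspartate, Asl splits the product into arginine and fumarate, and Arg1 cuts arginine into urea and ornithine. Periportal hepatocytes also release nitrogen from single amino acids: Gls2 deaminates glutamine, Hal takes the amino group from histidine, and Sds deaminates serine. Cyp2f2 is a cytochrome P450 of no known part in the cycle that is widely used as a periportal marker. Hepatocytes around the central vein instead capture leftover ammonia as glutamine.

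Total counts per library ran from 15167730 to 25082532, and the count of any 1 of the 10 genes in any library ran from 1051 to 108970. Cyp2e1, the targeted gene, had a mean level of 277 CPM (counts scaled by library size) in female knockout libraries against 6546 in female wild type, or 4.23%, and of 370 against 10851 in males, or 3.41%. The transcripts of hepatocytes were abundant in all libraries: 7 general hepatocyte markers summed to between 81081 and 128582 CPM, while 5 kidney markers summed to at most 0.162 CPM. Of the kidney markers, Umod, Aqp2 and Slc12a1 were at 0 in all 4 groups, and Slc34a1 was at 0 only in female knockout. The libraries differed in how level depended on gene length. This length slope, the slope of a library's log2 CPM deviation on log2 gene length, was -0.143 to -0.229 in female wild type and 0.0845 to 0.288 in female knockout libraries, with no overlap. In males it ran from -0.155 to 0.111 in wild type and from -0.167 to 0.169 in knockout libraries, with overlap. Differences below are log2 fold changes, ± an approximate standard error, from a quasi-likelihood model of the 12 libraries in edgeR, and a gene was called, and is said to have risen or fallen, at an adjusted p under 0.05.

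Compared per length of gene (as TPM, counts per base scaled to a common total), Ass1 was the most abundant of the 10 transcripts and Nags the least in each group. In female wild type liver Ass1 stood at 3682 ± 844 TPM (SD, n = 3), rank 30 among all genes, followed by Arg1 at 2533 ± 547 and Cps1 at 1047 ± 183. Asl (413 ± 118 TPM), Otc (344 ± 65.7), Cyp2f2 (343 ± 91.9), Sds (268 ± 77.9) and Gls2 (268 ± 60.5) came next, and neighbours in this order overlapped from library to library. Hal (87.9 ± 14.4 TPM) and Nags (57.9 ± 14.6) were lowest, separate from Gls2, and overlapped each other. The order differed between groups in its middle part: Cyp2f2 was 6th in female wild type, 4th in female knockout and 3rd in both male groups, where it overlapped Cps1, and Otc was 5th in female wild type and 8th in female knockout. The 5 enzymes that carry out the cycle (Cps1, Otc, Ass1, Asl and Arg1) together took 1.14% ± 0.18 of all counts in female wild type, 0.95% ± 0.135 in female knockout, 1.07% ± 0.0439 in male wild type and 0.928% ± 0.00522 in male knockout libraries. The female ranges of this share overlapped, and the male ranges did not.

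**Figure D1:**
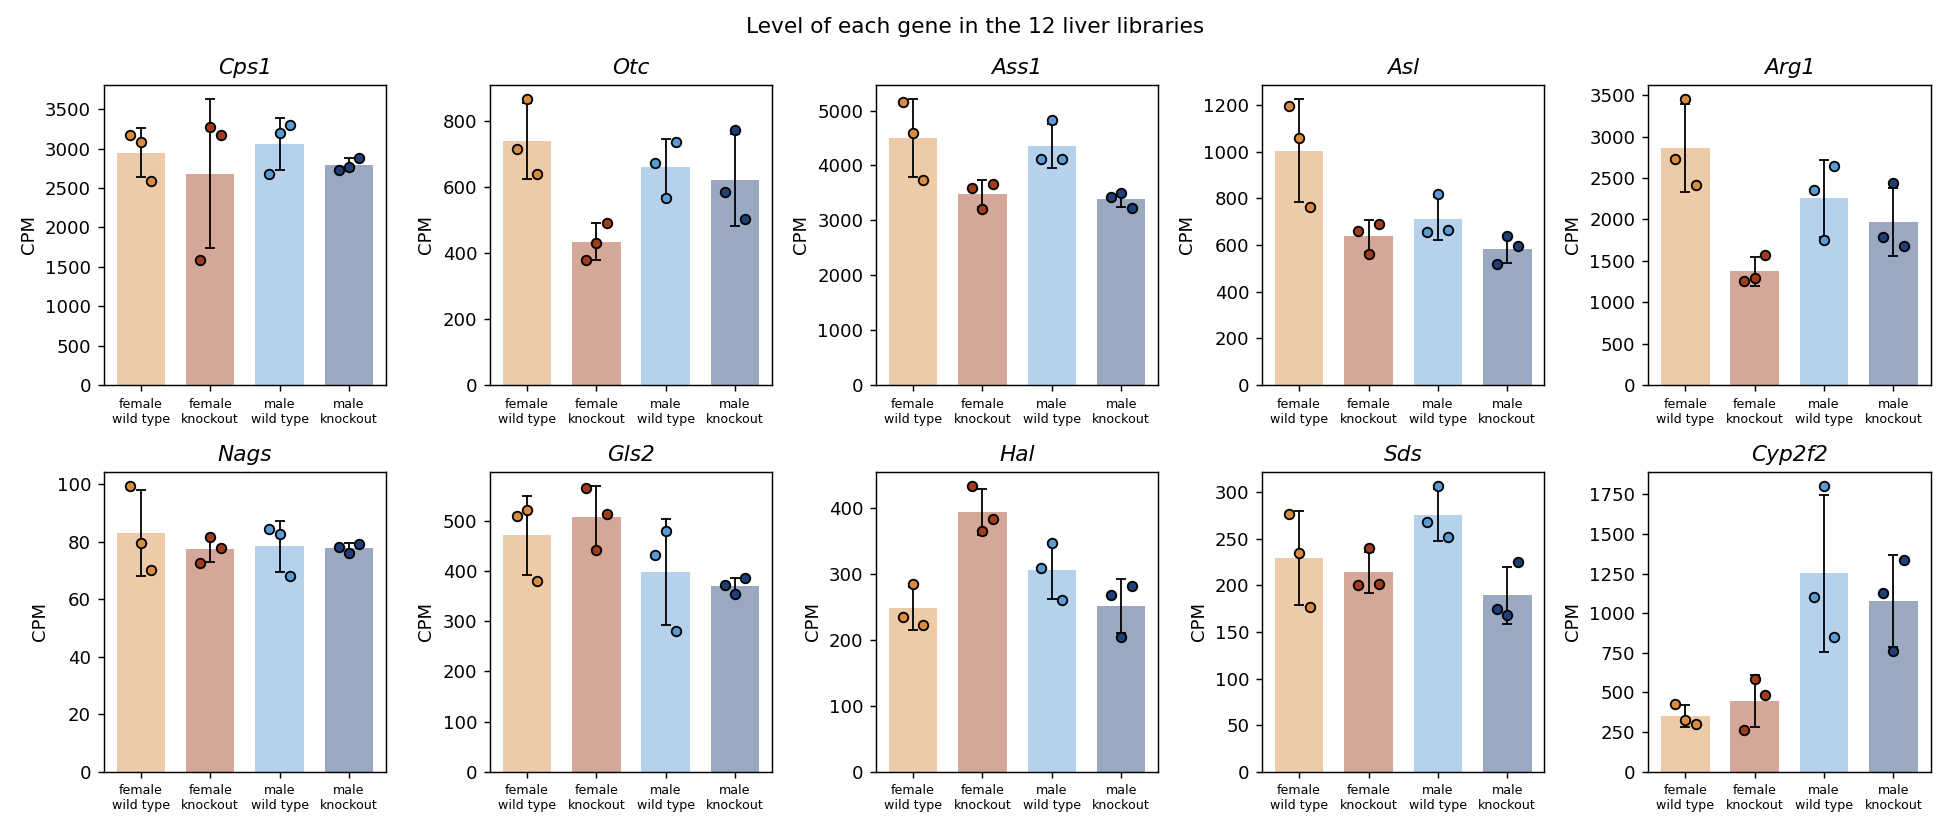
Level of each of the 10 genes (vertical axis, CPM from 0) in liver of females and then males, wild type before knockout; points are single libraries, bars the mean and error bars the SD of 3 libraries. Arg1, Otc, Asl and Ass1 sit lower and Hal higher in all 3 female knockout libraries than in all 3 female wild type libraries, where 54.8% of all genes do not overlap. Cyp2f2 is higher in all 6 male libraries than in all 6 female libraries.

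Among the mitochondrial steps, Otc fell in female knockout liver, while Nags and Cps1 did not pass the test. Otc (ENSMUSG00000031173, mm39 chromosome X, 10118544 to 10187263) was at 716, 867 and 640 CPM in the 3 female wild type libraries and at 381, 432 and 492 CPM in the 3 female knockout libraries. Every knockout value lay below every wild type value, and the mean was 58.7% of that in wild type. The log2 difference was -0.77 ± 0.20 (adjusted p = 0.0161, edgeR). In TPM the female Otc groups overlapped, at 343.7 ± 65.7 in wild type and 272.5 ± 51.1 in knockout libraries. In males Otc was at 673, 569 and 739 CPM in wild type and at 587, 775 and 504 CPM in knockout libraries. Those groups overlapped, and the log2 difference was -0.09 ± 0.20 (adjusted p = 1, edgeR).

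Cps1 (ENSMUSG00000025991, mm39 chromosome 1, 67162185 to 67270418), the enzyme that fixes ammonia, varied widely among the female knockout libraries. It was at 3172, 3086 and 2594 CPM in female wild type and at 1589, 3280 and 3174 CPM in female knockout libraries. Replicate 1 alone was low among the knockouts, and the other 2 were level with or slightly above the highest wild type value of 3172 CPM. The log2 difference of -0.14 ± 0.24 (adjusted p = 0.666, edgeR) was 0.13 without that library. In males Cps1 was at 2681, 3205 and 3298 CPM in wild type and at 2731, 2768 and 2886 CPM in knockout libraries, which overlapped. Nags (ENSMUSG00000048217, mm39 chromosome 11, 102036339 to 102040303), which makes the activator of Cps1, had means between 77.5 and 83.1 CPM in all 4 groups. Its log2 difference was -0.10 ± 0.17 in females (adjusted p = 0.651, edgeR) and -0.01 ± 0.17 in males (adjusted p = 1).

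The promoter of Otc is shown because Otc fell while its partners in the mitochondrion were not called, and that of Hal, printed with that gene, because it rose. RefSeq promoters of build GRCm38.p6 matched 5 of the 10 genes (Ass1, Cyp2f2, Hal, Nags and Otc). In the 250 bases before each start 5 motifs were searched on both strands: the cAMP response element TGACGTCA and its core TGACG (which overlap), the CCAAT box CCAAT, the TATA box TATAAA and the C/EBP site TTGCNNAA. Capitals mark a match to any of them. The 250 bases before the Otc start, at chrX:10252055-10252304 on the plus strand, hold no match and so print in lower case throughout.
Otc: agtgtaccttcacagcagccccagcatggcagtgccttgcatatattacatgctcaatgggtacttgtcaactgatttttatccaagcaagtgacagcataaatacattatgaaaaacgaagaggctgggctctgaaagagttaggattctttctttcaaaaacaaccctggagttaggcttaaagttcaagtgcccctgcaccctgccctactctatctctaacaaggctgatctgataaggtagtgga

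In the cytosol, Asl and Arg1 fell in female knockout liver, and Ass1 was lower in both sexes without passing the test. Arg1 (ENSMUSG00000019987, mm39 chromosome 10, 24791119 to 24803382), the last step and the one that releases urea, was at 2733, 3453 and 2417 CPM in female wild type and at 1256, 1296 and 1575 CPM in female knockout libraries. The groups did not overlap, and the knockout mean was 48.0% of the wild type mean, the largest difference among the 10 genes in females. The log2 difference was -1.06 ± 0.22 (adjusted p = 0.0139, edgeR). In males Arg1 was at 2362, 1748 and 2651 CPM in wild type and at 1786, 2439 and 1682 CPM in knockout libraries. These overlapped, with a log2 difference of -0.19 ± 0.22 (adjusted p = 1, edgeR).

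Asl (ENSMUSG00000025533, mm39 chromosome 5, 130040099 to 130058088), which releases arginine, was at 1194, 1058 and 763 CPM in female wild type and at 662, 563 and 691 CPM in female knockout libraries. In CPM the groups did not overlap, though the lowest wild type value was close to the highest knockout value. The log2 difference was -0.65 ± 0.19 (adjusted p = 0.0222, edgeR). In TPM the female Asl groups overlapped, at 412.6 ± 118 in wild type and 348.3 ± 27.8 in knockout libraries. Those of Arg1 and Hal, which were also called in females, did not overlap in TPM. In males the values were 657, 818 and 665 CPM in wild type and 520, 638 and 596 CPM in knockout libraries. All 3 knockout values lay below the wild type values, but the log2 difference of -0.29 ± 0.19 was not called (adjusted p = 1, edgeR).

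Ass1 (ENSMUSG00000076441, mm39 chromosome 2, 31360219 to 31410684), which brings the second nitrogen into the cycle, had close knockout to wild type ratios of CPM in both sexes. It was at 5149, 4599 and 3740 CPM in female wild type and at 3596, 3199 and 3666 CPM in female knockout libraries. In males it was at 4109, 4822 and 4125 CPM in wild type and at 3417, 3503 and 3226 CPM in knockout libraries. The groups overlapped in neither sex, and the knockout mean was 77.6% of wild type in females and 77.7% in males. The log2 differences of -0.37 ± 0.17 in females (adjusted p = 0.1, edgeR) and -0.36 ± 0.17 in males (adjusted p = 1, edgeR) were not called. The female value depended on the treatment of length: over 9 alternative settings it ran from -0.39 to -0.0525, nearest 0 with the length trend removed, while the male value ran from -0.37 to -0.29. In TPM, which is not TMM-scaled, the female knockout mean of Ass1 was 3810 against 3682 in wild type, and the male mean 2979 against 3722. Averaged over the sexes, the difference was -0.37 ± 0.12, with an adjusted p of 0.0525 by edgeR and of 0.00897 by DESeq2, and of 0.00897 to 0.369 over 8 alternative settings.

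Of the enzymes that feed nitrogen into the cycle, Hal rose in female knockout liver and Gls2 and Sds were not called in either sex. Hal (ENSMUSG00000020017, mm39 chromosome 10, 93324630 to 93355166), the first step of histidine breakdown, was at 236, 286 and 224 CPM in female wild type and at 434, 366 and 384 CPM in female knockout libraries. The groups did not overlap, and the mean was 1.59 times the wild type mean, with a log2 difference of 0.67 ± 0.18 (adjusted p = 0.0178, edgeR). In males the order of the means was opposite: 309, 348 and 261 CPM in wild type and 269, 205 and 283 CPM in knockout libraries. These overlapped, and the log2 difference was -0.28 ± 0.18 (adjusted p = 1, edgeR).

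Amdhd1, Uroc1 and Ftcd, which act after Hal in histidine breakdown, were each called higher in female knockout liver, where 17.7% of all genes were called higher. Amdhd1, which opens the imidazolone ring, was at 217, 248 and 201 CPM in wild type and at 424, 328 and 372 CPM in knockout libraries (log2 difference 0.76 ± 0.21, adjusted p = 0.0172, edgeR). Uroc1 acts between Hal and Amdhd1, and its level was 313, 276 and 227 CPM against 397, 521 and 515 CPM (0.81 ± 0.25, adjusted p = 0.0271). Ftcd, which hands the last carbon of histidine to folate, was at 391, 395 and 440 CPM against 614, 523 and 505 CPM (0.42 ± 0.16, adjusted p = 0.0484). For each of the 3 the female groups did not overlap, beside 27.6% of all genes that were higher without overlap. Uroc1 and Ftcd are named after their values were seen, so the 3 together are a description. With the length slope in the model Uroc1 turned to -0.14, and none of the 3 was called. In males none of the 3 was called, with log2 differences of -0.16 (Amdhd1), 0.08 (Uroc1) and 0.11 (Ftcd).

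The 250 bases before the Hal start, at chr10:93488518-93488767 on the plus strand, were the only 1 of the 5 promoters with a match. They hold TTGCTCAA, a match to the C/EBP site, at 150 bases before the start, CCAAT at 64 and TTTATA, the TATA box on the reverse strand, at 28. Of 32851 promoters of the same length, 9.56% hold the C/EBP site, 33.8% the CCAAT box and 12.4% the TATA box. The cAMP response element was in none of the 5 and in 1.55% of all promoters, and its core TGACG in none of the 5 and in 17.8% of all. A match describes letters and not binding.
Hal: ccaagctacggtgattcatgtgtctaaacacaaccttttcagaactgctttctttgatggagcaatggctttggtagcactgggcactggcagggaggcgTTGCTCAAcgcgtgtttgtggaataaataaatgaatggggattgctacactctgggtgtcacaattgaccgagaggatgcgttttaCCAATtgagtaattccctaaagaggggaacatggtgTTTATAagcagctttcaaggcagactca

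Gls2 (ENSMUSG00000044005, mm39 chromosome 10, 128030326 to 128045873), the glutaminase of adult liver, was at 511, 522 and 381 CPM in female wild type and at 567, 442 and 513 CPM in female knockout libraries. In males it was at 433, 481 and 280 CPM in wild type and at 372, 355 and 385 CPM in knockout libraries. In CPM the groups overlapped in both sexes, and the log2 differences were 0.11 ± 0.21 (adjusted p = 0.709, edgeR) and -0.10 ± 0.21 (adjusted p = 1). In TPM the female Gls2 groups did not overlap, at 267.9 ± 60.5 in wild type and 383.5 ± 12.4 in knockout libraries. Sds (ENSMUSG00000029597, mm39 chromosome 5, 120614591 to 120621997), serine dehydratase, was at 277, 235 and 176 CPM in female wild type and at 201, 240 and 202 CPM in female knockout libraries, with overlap. In males it was at 269, 307 and 252 CPM in wild type and at 175, 169 and 225 CPM in knockout libraries, with no overlap. That log2 difference, -0.54 ± 0.20, was the largest of the 10 genes in males and was not called (adjusted p = 0.863, edgeR).

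Cyp2f2 (ENSMUSG00000052974, mm39 chromosome 7, 26819334 to 26833085) differed by sex and not, by the test, by line. It was at 429, 325 and 299 CPM in female wild type and at 264, 583 and 486 CPM in female knockout libraries. In males it was at 1103, 1802 and 849 CPM in wild type and at 1127, 763 and 1336 CPM in knockout libraries. All 6 male values lay above all 6 female values. The male mean was 3.57 times the female mean in wild type (log2 difference 1.83 ± 0.34, adjusted p = 0.0057, edgeR) and 2.42 times in knockout liver (1.27 ± 0.33, adjusted p = 0.0416, edgeR). Between knockout and wild type the log2 difference was 0.34 ± 0.33 in females (adjusted p = 0.424, edgeR) and -0.22 ± 0.33 in males (adjusted p = 1). Over 9 alternative settings the female value ran from -1.03, with the length slope in the model, to 0.80, and only that slope setting turned its sign. The sex difference in wild type passed in all 12 fits that left out 1 library and under all 9 other settings, at 1.2 to 2.06. That in knockout liver passed in 4 of 12 such fits and under 4 of 9 other settings. The promoter of Cyp2f2 is shown as that of the gene with the sex difference; its 250 bases, at chr7:27119705-27119954 on the plus strand, hold no match to the 5 motifs.
Cyp2f2: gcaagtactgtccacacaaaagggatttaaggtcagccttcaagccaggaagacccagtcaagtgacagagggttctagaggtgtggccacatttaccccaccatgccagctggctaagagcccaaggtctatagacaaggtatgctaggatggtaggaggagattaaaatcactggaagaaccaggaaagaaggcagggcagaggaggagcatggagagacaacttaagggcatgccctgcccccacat

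**Figure D2:**
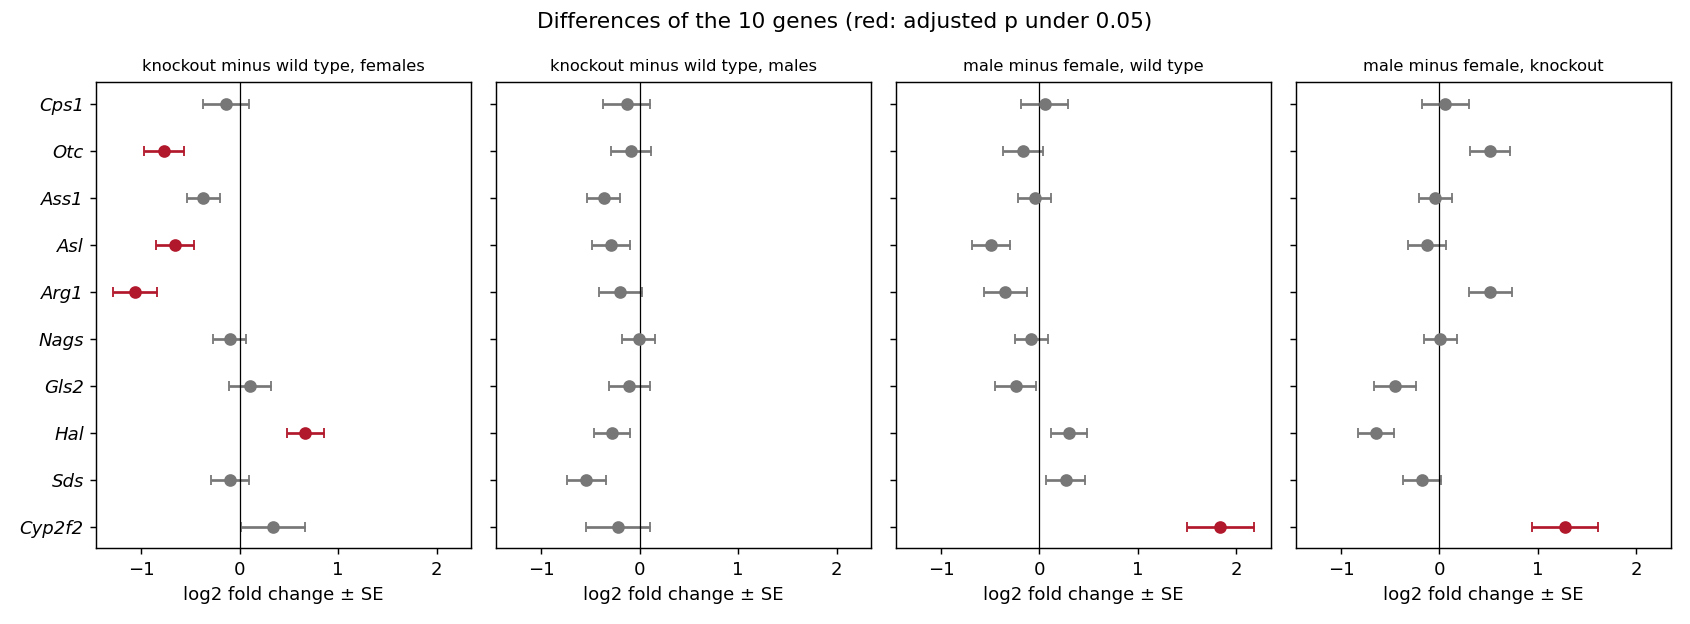
Log2 fold changes ± SE (horizontal axis) of the 10 genes for knockout minus wild type in females and in males and for male minus female in wild type and in knockout liver, from edgeR's fit to 12 libraries. Red marks an adjusted p under 0.05: Otc, Asl, Arg1 and Hal in females, no gene in males, and Cyp2f2 in both sex comparisons.

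Counted over the 10 genes, 4 were called between female knockout and wild type liver (1 higher, 3 lower), where 36.5% of all genes tested were called (17.7% higher and 18.8% lower). The share among the 10 is near that of all genes. The median log2 difference was -0.12 over the 10 and 0.05 over all genes tested. In 5 of the 10 (Otc, Ass1, Asl, Arg1 and Hal) the female groups did not overlap in CPM, beside 54.8% of all genes (27.6% higher and 27.1% lower in the knockout). In males edgeR called none of the 10 and 0.0571% of all genes, and DESeq2 called none of the 10 and 34 of all genes. By edgeR, Sds and Ass1 had an unadjusted p under 0.05, at 0.016 and 0.0499. All 10 male differences were below 0, from -0.54 to -0.01, with a median of -0.21 against 0.00 over all genes. Those of Otc, Gls2 and Cyp2f2 kept that sign in 11 of 12 fits without 1 library. That of Nags kept it in 9 of 12 such fits and under 5 of 9 alternative settings. In males 3 of the 10 (Ass1, Asl and Sds) did not overlap, all lower in the knockout, beside 9.62% of all genes in either direction and 4.52% lower.

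As the mean of both sexes, Arg1 (-0.63 ± 0.16, adjusted p = 0.0338, edgeR) and Asl (-0.47 ± 0.14, adjusted p = 0.0421, edgeR) fell. These 2 of 10 stand beside 15.1% of all genes called in either direction and 7.29% called lower. Otc missed the threshold at -0.43 ± 0.14 (adjusted p = 0.0551, edgeR). Each call was lost in 9 of 12 fits without 1 library and by glmTreat against a fold of 1.2. Each library of a sex enters both its own comparison and this mean, so the mean adds no independent samples.

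The difference between the sexes in the knockout effect was tested directly, and edgeR called none of the 10 genes and 0% of all genes. Before adjustment 3 of the 10 were under 0.05, as were 3145 of all genes: Hal (male minus female -0.95 ± 0.26, adjusted p = 0.204, edgeR), Arg1 (0.86 ± 0.31, adjusted p = 0.204) and Otc (0.68 ± 0.29, adjusted p = 0.206). DESeq2 called 218 genes, among them Arg1 (adjusted p = 0.0451) and Hal (adjusted p = 0.0401). Over 8 alternative settings the adjusted p ran from 0.0451 to 0.972 for Arg1 and from 0.0401 to 0.833 for Hal. A fall of Arg1, Asl and Otc that is called in females and not in males is therefore not shown to differ between the sexes by the edgeR test.

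Between the sexes, Cyp2f2 was 1 of 10 called in wild type, beside 4.49% of all genes (2.1% higher in males), and 1 of 10 in knockout liver, beside 5.4% (2.95% higher in males). In wild type it was also the only one of the 10 whose sexes did not overlap, beside 26.9% of all genes (13.4% higher in males). In knockout liver 5 of 10 did not overlap, beside 28.1% of all genes (14% higher and 14.2% lower in males): Otc, Arg1 and Cyp2f2 were higher and Gls2 and Hal lower in all male libraries. Of those, Hal had a log2 difference of -0.65 ± 0.18 (adjusted p = 0.0607, edgeR) and Otc and Arg1 of 0.52 ± 0.20 and 0.52 ± 0.22 (adjusted p = 0.16 and 0.186).

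The length slope of the libraries separated the female groups, and its order was compared with the levels within each group. In both male groups, where wild type and knockout slopes overlap, the library of higher slope always had the lower Arg1 and Otc and the higher Gls2, Hal, Sds and Cyp2f2. This order over the 3 libraries of each male group held for 6 of the 10 genes (60.0%) and for 37.9% of all genes tested. None of the 10 followed the slope within female wild type. Within female knockout, Arg1, Otc, Asl and Ass1 followed it in neither direction, Gls2 and Hal were lower with a higher slope, opposite to the males, and Cps1, Nags, Sds and Cyp2f2 were higher. In male wild type, the library of lowest slope (-0.155) had Arg1 at 2651 CPM and Hal at 261 CPM, and that of highest slope (0.111) had Arg1 at 1748 and Hal at 348 CPM. In a fit that holds the length slope of each library as a term, none of the 10 was called in females, and the log2 difference was -0.46 for Arg1 (adjusted p = 0.627), -0.28 for Otc (0.767), -0.66 for Asl (0.45) and 0.35 for Hal (0.676). The value for Asl was close to that without the term, -0.65. Because the slopes of the female groups do not overlap, slope and line cannot be told apart in the females.

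**Figure D3:**
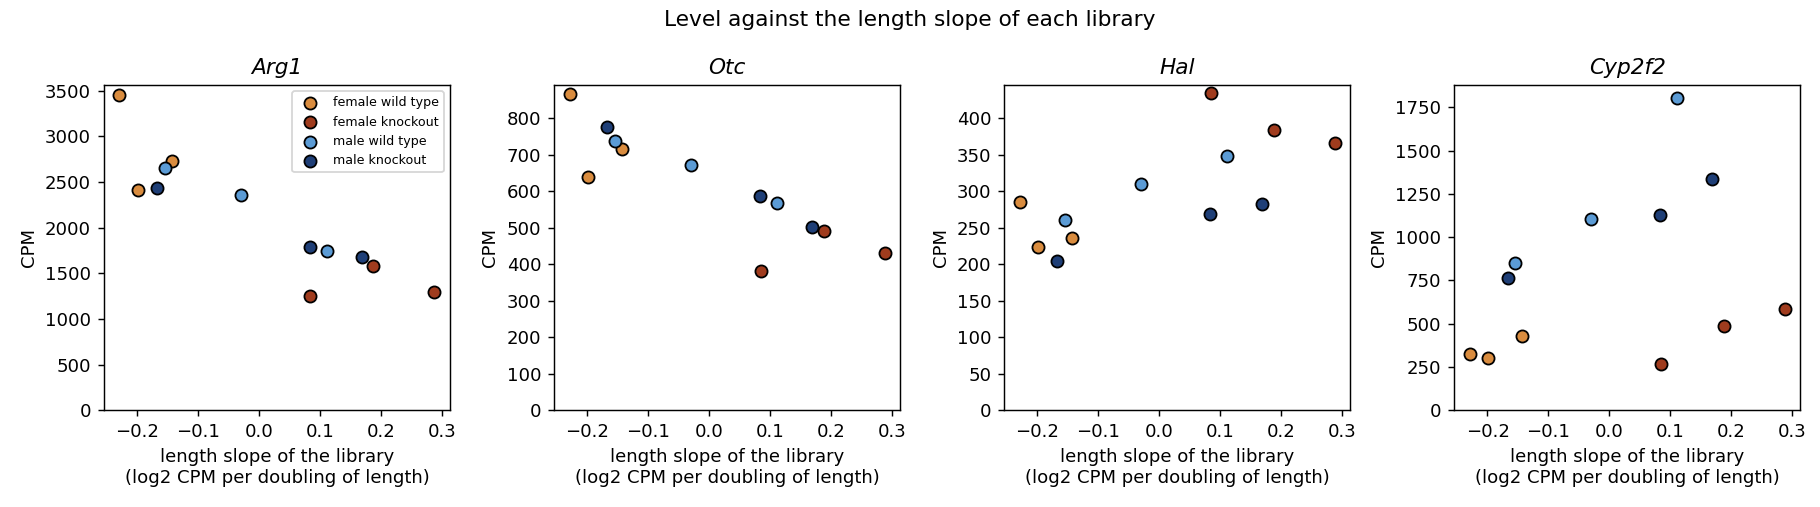
Level in CPM (vertical axis, from 0) of Arg1, Otc, Hal and Cyp2f2 against the length slope of each library (horizontal axis, log2 CPM per doubling of gene length); each point is 1 of 12 libraries, coloured by group. Female wild type libraries lie between -0.229 and -0.143 and female knockout libraries between 0.0845 and 0.288, and within both male groups Arg1 and Otc are lower and Hal and Cyp2f2 higher the higher the slope.

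All 4 female calls also rested on 2 libraries, and those of Asl and Hal on another as well. Without female wild type replicate 2, or without female knockout replicate 2, none of the 10 was called, while the total over all genes dropped from 5116 to 5 and to 4. The size of the differences moved little: over 12 fits that each left out 1 library, Arg1 ran from -1.17 to -0.91 (adjusted p 0.00215 to 0.061), Otc from -0.87 to -0.64 (0.00508 to 0.0705), Asl from -0.82 to -0.51 (0.015 to 0.0898) and Hal from 0.60 to 0.78 (0.00712 to 0.0612). Arg1 and Otc were called in 10 of these 12 fits, and Asl and Hal in 9.

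**Figure D4:**
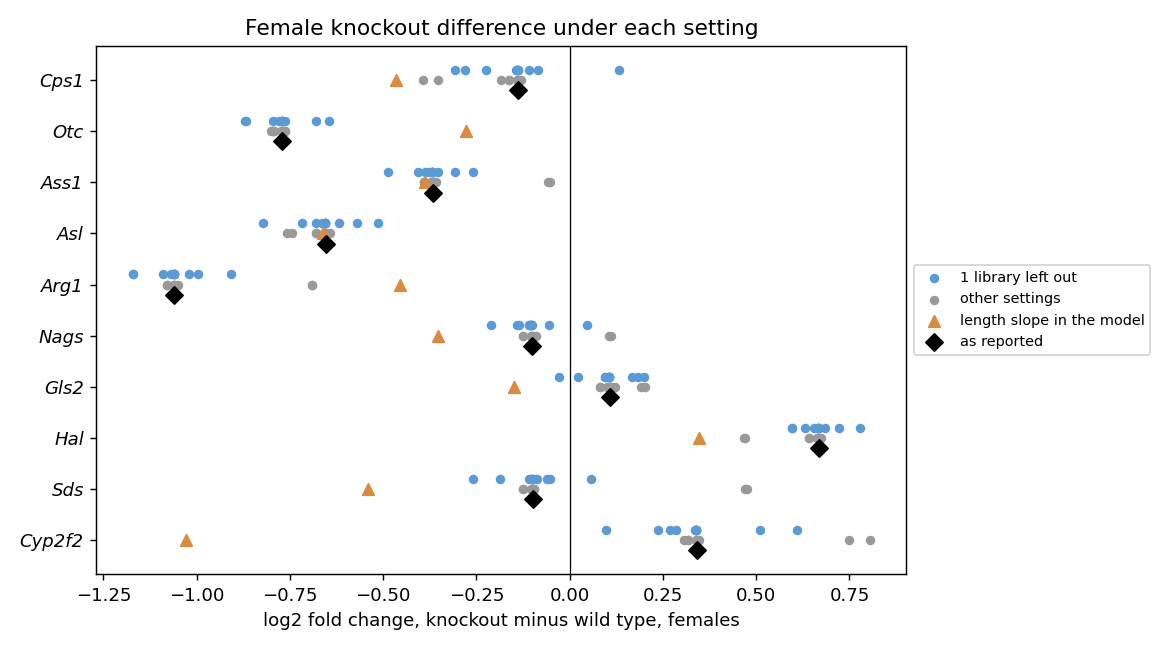
Log2 fold change of each gene, knockout minus wild type in females (horizontal axis), under the reported fit (diamond), with 1 library left out (blue), with the length slope in the model (triangle) and under other settings (grey). Arg1, Otc, Asl and Hal keep their sign throughout, and the triangle lies nearer 0 than the diamond for Arg1 (-0.46 against -1.06), Otc (-0.28 against -0.77) and Hal (0.35 against 0.67).

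Of 21 genes of urea cycle support and ammonia handling tested, 4 rose and 1 fell in female knockout liver, with a median log2 difference of 0.07 against 0.05 over all genes. Of all genes 17.7% were called higher and 18.8% lower, and these shares apply to each female list count that follows. With the length trend removed the split of this list was 3 higher and 3 lower. Those that rose were Slc7a2, a carrier of arginine and ornithine (1.04 ± 0.30, adjusted p = 0.02, edgeR), Slc38a3, a glutamine carrier (1.06 ± 0.30, adjusted p = 0.0202), Got2, which makes aspartate in the mitochondrion (0.76 ± 0.24, adjusted p = 0.0301), and Slc38a4, an amino acid carrier (0.60 ± 0.19, adjusted p = 0.0304). The 1 that fell was Rhbg, an ammonia channel of central hepatocytes, named after its value was seen (-0.74 ± 0.25, adjusted p = 0.0349). Of 27 genes of amino acid catabolism tested, 4 rose and 8 fell, with a median of -0.17, and with the length trend removed 8 were higher and 4 lower. Besides Amdhd1, Uroc1 and Ftcd, Gldc, which splits glycine, rose by 1.01 ± 0.28 (adjusted p = 0.0183), while Gcsh, its lipoyl carrier protein, fell by 1.06 on the log2 scale (adjusted p = 0.0148) and Gstz1 of tyrosine breakdown by 1.08 (adjusted p = 0.0191).

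Of 18 other periportal markers 4 rose and none fell in female knockout liver, a share of higher calls near that of all genes (17.7%), with a median of 0.19. Hsd17b13, a lipid droplet enzyme (0.85 ± 0.20, adjusted p = 0.0142, edgeR), Cdh1, the cadherin of periportal hepatocytes (1.11 ± 0.28, adjusted p = 0.0149), and Pigr, the receptor that carries IgA into bile (0.82 ± 0.23, adjusted p = 0.019), were among them. Hsd17b13 was at 450, 470 and 409 CPM in female wild type and at 889, 747 and 764 CPM in female knockout libraries. Of the 18, 7 had female differences below 0, the lowest at -1.15, and 11 above 0. As the mean of both sexes 3 of the 18 were called higher and 2 lower, beside 15.1% of all genes called in either direction. Mfsd2a was 1 of the lower ones (-0.88 ± 0.24, adjusted p = 0.038, edgeR). Pericentral markers other than Cyp2e1 went both ways, with 5 of 20 higher and 5 lower and a median of 0.11: Cyp7a1, which opens the main route from cholesterol to bile acids, fell by 1.89 on the log2 scale (adjusted p = 0.0132), and Tbx3, a transcription factor, rose by 1.7 ± 0.35 (adjusted p = 0.0139). Of 20 regulators of urea cycle and periportal genes, 7 rose and none fell, with a median of 0.42, and with the length trend removed 3 were higher and 1 lower. Cebpa (1.01 ± 0.27, adjusted p = 0.016) and Sirt5, a deacylase that acts on Cps1 protein (0.87 ± 0.23, adjusted p = 0.0166), were among them. The lists share genes, so their counts are not independent. Rhbg counts in urea cycle support and among the pericentral markers, and Gldc in amino acid catabolism and among the periportal markers. In male knockout liver none of the genes in these 5 lists was called by edgeR. In females the calls in these lists went to 0 without female wild type replicate 2 and without female knockout replicate 2. With the length slope in the model they went to 0 in 4 lists and to 1 among the pericentral markers, and Slc7a2, Slc38a3, Got2, Gldc, Gstz1, Uroc1, Pigr, Cebpa and Apc were among the genes that changed sign there.

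**Figure D5:**
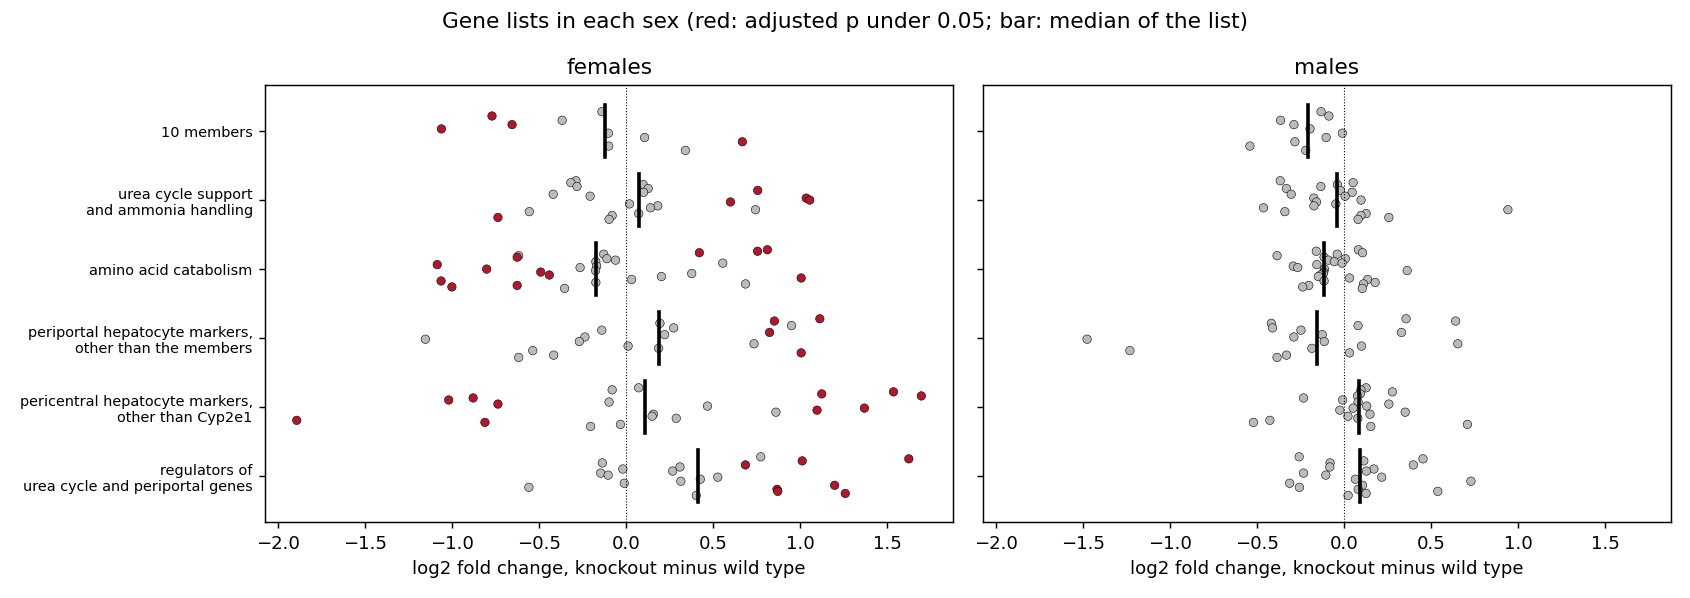
Log2 fold change, knockout minus wild type (horizontal axis), of each tested gene of 6 lists in females and in males; red marks an adjusted p under 0.05 and the bar is the median of the list. In females the 10 genes have 3 called lower and 1 higher, whereas the regulators have 7 called, all higher; in males no gene is called.

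Markers of other liver cells moved between the female groups as well. The 8 endothelial markers summed to 157 to 185 CPM in wild type and to 213 to 286 CPM in knockout libraries with no overlap, and 4 of them rose, beside 17.7% of all genes called higher. With the length slope in the model 2 of those 4 changed sign (Stab2 to -0.16 and Ptprb to -0.0109). The 10 Kupffer cell and macrophage markers summed to 165 to 234 against 208 to 275 CPM, which overlapped, and 4 rose, among them Csf1r (1.56 ± 0.28, adjusted p = 0.0132, edgeR). The 6 cholangiocyte markers summed to 42.3 to 50.1 against 22.4 to 34.1 CPM, with 1 of 5 tested higher and 2 lower. The 8 stellate cell and fibroblast markers gave 232 to 253 against 199 to 245 CPM, the 6 of lymphocytes and neutrophils 9.26 to 15.2 against 13.1 to 34.1, and the 4 erythroid ones 429 to 1010 against 225 to 568. The 6 pancreas, muscle and adipose markers summed to 2.55 to 11.6 against 2.16 to 49.3 CPM. No marker of the other 6 lists was at 0 in all 3 libraries of a female group. Sums of the general hepatocyte markers overlapped, at 97547 to 128582 and 117875 to 122015 CPM. The part of cell composition in the fall of Arg1, Asl and Otc was not tested.

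The genes whose levels followed a member most closely over the 12 libraries were found by Pearson's r of log2 CPM among 9015 genes, as a description. Otc followed Vps26a, of the retromer complex (r = 0.991), and Pcca, a subunit of propionyl-CoA carboxylase (r = 0.985). Arg1 followed Dera, a deoxyribose-phosphate aldolase (r = 0.985), and Ndfip2, an adaptor of ubiquitin ligases (r = 0.984). Cyp2f2 followed Ero1b, an oxidase of the endoplasmic reticulum (r = 0.983), and Cyp1a2, a pericentral P450 (r = 0.967). For the other 7 genes the closest r ran from 0.855 (Nags with Topbp1) to 0.951 (Asl with Polr3g). All these values share the libraries and their length slopes.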

How the data were processed

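The authors deposited raw counts per gene for 12 libraries, with mm39 positions, gene lengths and symbols. HISAT2 2.0.5, DESeq2 and mm39 appear, with no role, in the submitters' processing notes. Not given in the sources used here were the program that counted reads and its strand option. Columns were matched to samples by library number, and 0 columns were left unused. Where a symbol had several rows, the one with most counts was kept. In R 4.3.3, edgeR 4.0.16 was used with TMM scaling, filterByExpr (14003 of 56748 genes, 99.9% of counts), 1 mean for each of 4 groups and the quasi-likelihood F test (8 residual degrees of freedom). P-values were adjusted by Benjamini-Hochberg over all genes tested in each of 6 contrasts, and called under 0.05. Standard errors were taken as |log2 fold change| divided by the square root of F. CPM used TMM-scaled library sizes; TPM used the deposited gene lengths. The length slope used genes with mean log2 CPM above 2. DESeq2 1.42.0 and the other settings are in the closing section. The fitting was tested on simulated counts drawn with no length slope, so that test cannot judge calls that depend on the slope. With 3 biological replicates a group, p-values set each difference against the spread between these libraries. That spread joins mouse and library preparation, which cannot be told apart.

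The 10 genes and the lists were chosen with earlier results of these data known. Called genes named from a list are among its up to 4 of smallest adjusted p in the knockout contrasts and the wild type sex contrast. Those named by r are among the 2 of highest r for each of the 10 genes. Not every gene under these rules is printed, and others are said to be chosen after their values were seen. Some list genes are not reported here singly but stay in the fits and counts.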

Additional observations from a re-analysis of the deposited data

How the results depend on the processing

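Arg1, Asl, Otc and Hal in females and Cyp2f2 between the sexes kept their direction under all 9 alternative settings and in all 12 fits without 1 library. The number of the 10 genes called in females was 4, and 0 with the length slope of each library in the model, with a leave-one-out range of 0 to 4. In males it was 0 under all settings. As the mean of both sexes it was 2, against 4 by DESeq2, 1 with the length trend removed and 0 with the length slope, with the replicate block, with the replicate block and the length trend removed, and with glmTreat against a fold of 1.2, with a leave-one-out range of 0 to 4. For the difference between the sexes it was 0, against 2 by DESeq2. In knockout males against females it was 1, against 2 by DESeq2 and 0 with only the groups compared in the fit, with the replicate block, with that block and the length trend removed, and with glmTreat, with a leave-one-out range of 0 to 1. In that comparison Cyp2f2 was called under 4 of 9 alternative settings and Hal under 2. The cause of these shifts was not tested. Replicate numbers were not used as pairs in the main fit. Deviations of same-numbered female wild type and knockout libraries correlated at -0.344 to -0.217, and those of males at -0.799 to 0.121. Differently numbered libraries were not compared, so these values do not decide whether the samples were paired. The replicate block called 3 of the 10 genes in females. All genes called in females were 5116, 10 with the length slope, 3365 with the replicate block and 2171 with the replicate block and the length trend removed. As the mean of both sexes they were 2111, 23 with the replicate block, 21 with the length slope, 70 with the replicate block and the length trend removed, 54 with glmTreat, 3959 by DESeq2 and 3900 without the filter. In males they were 8, 34 by DESeq2, 101 without the filter, 18 with the length slope and 1 with only the groups compared. Between the sexes they were 629 in wild type, 1226 by DESeq2, 1700 without the filter and 415 with the replicate block, and 756 in knockout liver, 1395 by DESeq2 and 1694 without the filter. For the difference between the sexes they were 0, 218 by DESeq2, 1451 without the filter and 3 with the length slope. With 1 library left out the counts over all genes ran from 4 to 5993 in females, 5 to 18 in males, 18 to 5594 as the mean of both sexes, 0 to 2 for the difference, 379 to 1124 between wild type sexes and 440 to 953 between knockout sexes. With the length slope in the model these female differences changed sign: Slc7a2 -0.12, Slc38a3 -0.0908, Got2 -0.0726, Gldc -0.0571, Gstz1 0.16, Pigr -0.0216, Cebpa -0.0988, Apc -0.12, Apob -0.16, Ptprb -0.0109, Stab2 -0.16, Pdgfrb -0.22, Reln -0.37 and Uroc1 -0.14. As the mean of both sexes Reln (-0.0272) and Pdgfrb (-0.0223) did so, and with the length trend removed Reln in females (-0.00797). Removing the length trend moved the split of higher and lower calls in females from 4 and 1 to 3 and 3 for urea cycle support and from 4 and 8 to 8 and 4 for amino acid catabolism. Depth did not limit the 10 genes, whose lowest count was 1051.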

Other observations

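Between the sexes in wild type liver, 3 of 21 genes of urea cycle support and ammonia handling were called, all higher in males, and 1 of 27 of amino acid catabolism, lower, beside 4.49% of all genes in either direction. Asns, which makes asparagine from aspartate, was at 0.777 CPM in females and 10.04 CPM in males (log2 difference 3.63 ± 0.44, adjusted p = 0.000193, edgeR). In knockout liver it was at 1.357 and 19.31 CPM. Slc7a2 (1.28 ± 0.30, adjusted p = 0.0262) and Slc38a4 (0.75 ± 0.20, adjusted p = 0.0465) were also higher in males, and Shmt1, which converts serine and glycine, was lower (-0.70 ± 0.16, adjusted p = 0.0215). Of 18 other periportal markers 3 were called and 15 were not: Etnppl was higher in males (1.45 ± 0.21, adjusted p = 0.000877), and Ctsc (-1.18 ± 0.23, adjusted p = 0.00907) and Alb (-0.78 ± 0.19, adjusted p = 0.0367) were lower. Etnppl was at 65.1, 62.1 and 63.9 CPM in females and at 156, 234 and 130 CPM in males. Of 20 pericentral markers 4 were called, with the P450 genes Cyp2c37 (-2.74 ± 0.26, adjusted p = 1.59e-05) and Cyp2a5 (-1.75 ± 0.28, adjusted p = 0.00201) lower and Cyp1a2 (1.13 ± 0.26, adjusted p = 0.0231) higher in males, and Notum lower (-0.72 ± 0.17, adjusted p = 0.0325).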
